A study of Rattus norvegicus with 20 samples.

Results

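The nuclear genes of oxidative phosphorylation were examined in RNA from the nucleus accumbens, a reward region of the ventral striatum, of male Sprague-Dawley rats of 7 to 9 weeks that self-administered cocaine. The rows were taken from the gene symbols of the deposited count table by their names, as the Nduf, Sdh, Uqcr, Cox and Atp5 families, with 10 or more counts in at least 4 of the 20 libraries. Of 92 rows with such names, 86 met the count minimum, out of 17296 rows in all. They comprised 33 subunits of complex I, 4 of complex II, 8 of complex III, 14 of complex IV and 15 of complex V, and 12 assembly factors, associated factors and copies. In their drink, 4 rats received antibiotics, which deplete gut bacteria (Abx), 6 rats received short-chain fatty acids (SCFA) and 5 rats received both (Abx_SCFA), while 5 rats drank water (H2O). All rats were wild type, were housed 2 to a cage and self-administered cocaine, so that no group without cocaine is part of the comparisons. The labels do not name the antibiotics or fatty acids, their doses or the length of treatment. Which rats shared a cage is unknown, and each was treated as a separate animal.

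Oxidative phosphorylation makes most of the ATP of a neuron. Complex I takes electrons from NADH and complex II, which is also an enzyme of the tricarboxylic acid cycle, takes them from succinate. Both pass them through coenzyme Q to complex III, cytochrome c and complex IV, where oxygen is reduced. Complexes I, III and IV pump protons across the inner mitochondrial membrane, and complex V, the ATP synthase, uses the gradient. Most subunits are encoded in the nucleus and some in mitochondrial DNA, whose transcripts are not analysed here. Short-chain fatty acids, which gut bacteria make from fibre, can be burnt as fuel by this chain and also inhibit histone deacetylases.

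The authors deposited raw read counts per gene symbol. Library totals ran from 17525358 to 25731636 counts, and the 86 genes together took from 0.991% to 1.17% of them. Levels are given below as CPM, counts scaled to a common library total. Since no transcript lengths were at hand, levels of different genes are not ranked against each other. The tissue label was checked on 10 markers of medium spiny neurons, the principal striatal cell type, whose mean log2 CPM lay between 7.91 and 9.25 in the 20 libraries. Markers of cortical excitatory neurons varied widely, with a mean log2 CPM over 8 markers from 2.33 to 4.94 in Abx, 2.55 to 6.38 in SCFA, 2.99 to 4.67 in Abx_SCFA and -0.06 to 4.04 in H2O, and of these 8 markers Neurod1 was at 0 in the lowest H2O library. Rat numbers in the 4-hundreds belong to every rat given fatty acids, and those in the 2-hundreds and 3-hundreds to the Abx and H2O rats. The number series and the fatty acids hence cannot be told apart where a group given fatty acids is set against Abx or H2O. In bulk RNA, fewer cells of a type and less RNA per cell cannot be told apart either.

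The transcripts of the 5 complexes stood at nearly the same level in all 4 groups. The mean log2 CPM of the complex I subunits was 6.23 ± 0.093 in Abx, 6.21 ± 0.089 in SCFA, 6.24 ± 0.090 in Abx_SCFA and 6.23 ± 0.12 in H2O (SD; n = 4, 6, 5 and 5). That of complex II was 7.23 ± 0.025 in Abx, 7.21 ± 0.053 in SCFA, 7.28 ± 0.088 in Abx_SCFA and 7.24 ± 0.077 in H2O. Complex III stood at 6.82 ± 0.11 in Abx, 6.82 ± 0.11 in SCFA, 6.86 ± 0.085 in Abx_SCFA and 6.82 ± 0.13 in H2O. For each of these complexes the group means spanned less than 1 SD of the widest group.

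Complex IV had the widest gap between group means, at 6.17 ± 0.059 in Abx, 6.21 ± 0.11 in SCFA, 6.25 ± 0.13 in Abx_SCFA and 6.15 ± 0.099 in H2O. This mean weighs each gene alike, the low-count isoforms Cox4i2, Cox6b2 and Ndufa4l2 included, whose fold changes were among the widest. The summed CPM of complex IV, in which they weigh little, was 2228 ± 153 in Abx, 2222 ± 158 in SCFA, 2290 ± 176 in Abx_SCFA and 2182 ± 175 in H2O. In mean log2 CPM the lowest Abx_SCFA library for complex IV, at 6.05, was below the mean of H2O, and the groups overlapped. Complex V stood at 6.82 ± 0.080 in Abx, 6.80 ± 0.098 in SCFA, 6.82 ± 0.076 in Abx_SCFA and 6.79 ± 0.15 in H2O. H2O held the widest spread of complex V, from 6.60 to 6.98.

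**Figure D1:**
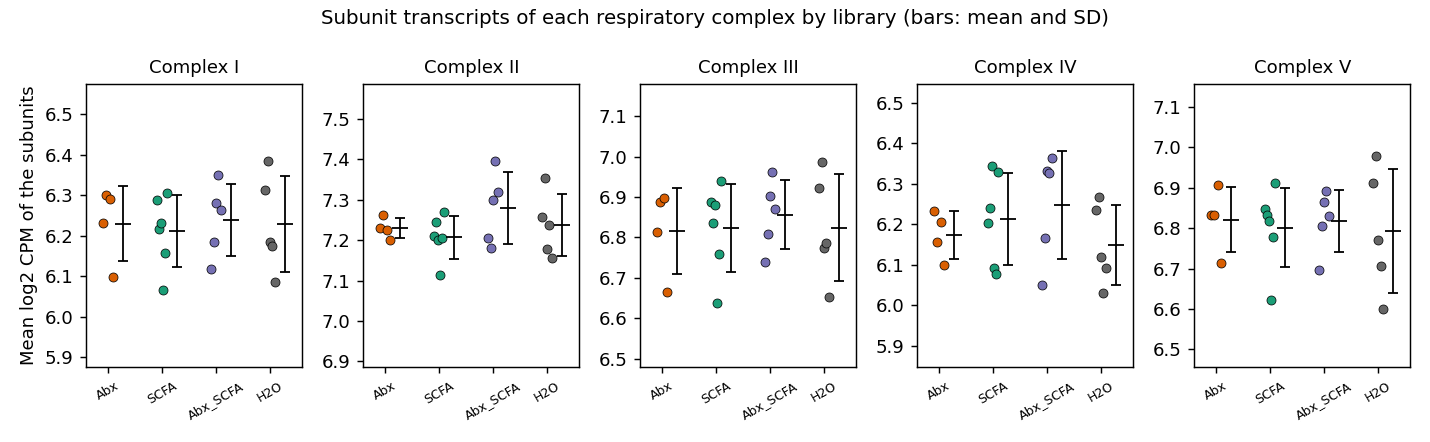
Mean log2 CPM of the subunits of each complex (vertical axis) by treatment group (horizontal axis), with 1 point per library and bars for the mean and SD of the group. Each panel spans the same range of log2 CPM, and in each the groups overlap, with the highest H2O library of complex V at 6.98 and the lowest at 6.60.

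No gene of the 86 was called in any of the 6 comparisons, and neither was any of the 12846 genes tested, by the quasi-likelihood test of edgeR with Benjamini-Hochberg adjustment over all genes (adjusted p below 0.05, 0% of all genes called in each). DESeq2 and limma-voom called 0 of the 86 as well. DESeq2 called 1 gene of all genes in Abx vs H2O, 10 in SCFA vs H2O, 1 in Abx_SCFA vs H2O, 3 in Abx_SCFA vs SCFA and 0 in the rest, and limma-voom called 0. The 95% interval of the fold change lay within 1.5-fold in either direction for 84 of 86 genes in Abx vs H2O, 84 in SCFA vs H2O, 83 in Abx_SCFA vs H2O, 83 in Abx_SCFA vs Abx and 85 in Abx_SCFA vs SCFA. It lay within 1.2-fold for 69, 64, 65, 67 and 67 genes in the same order. The genes outside 1.5-fold were Cox4i2, Cox6b2, Ndufa4l2 and Atp5f1, all of which had low counts. No gene of the 86 had all libraries of one group above or below all libraries of the other in any of these comparisons, against 2.46%, 0.537%, 1.42%, 1.2% and 0.56% of all genes in that order.

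Abx vs H2O asks what depletion of the microbiome did in rats that drank no fatty acids. Of the 86 genes, 45 had a positive and 41 a negative log2 fold change, with a median of 0.0016, against 47.7% positive and a median of -0.0083 over all genes. None of the 86 was at an unadjusted p below 0.05, where 8.79% of all genes were (3.26% with a positive and 5.53% with a negative log2 fold change), and the smallest adjusted p was 0.605 (edgeR). That gene was Atp5d, the delta subunit of the F1 part of ATP synthase. It stood at 130, 123, 138 and 132 CPM in Abx, against 126, 138, 116, 104 and 109 CPM in H2O. Its log2 fold change was 0.14 ± 0.079 (SE), and H2O replicate 2 was as high as the highest Abx library. On the negative side Ndufa12, an accessory subunit of complex I, had -0.14 ± 0.10 (adjusted p = 0.694), with 31.5 ± 2.77 CPM in Abx and 34.8 ± 4.56 CPM in H2O (SD, n = 4 and 5). By complex, the medians were 0.00021 for I, -0.0057 for II, -0.00034 for III, 0.040 for IV and 0.0028 for V. The core subunits of complex I, which carry its flavin and iron-sulfur clusters, were positive in 3 of 7. Cortical markers were positive in 8 of 8 genes in this comparison (median 2.19) and oligodendrocyte markers negative in 6 of 6 (median -0.64). With the mean of the cortical markers as a covariate, 54 of the 86 genes were positive (median 0.021), and the part of the oligodendrocyte markers was not tested.

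SCFA vs H2O asks what the fatty acids did in rats with an intact microbiome. Here 37 of the 86 genes were positive and 49 negative, with a median of -0.0082, against 48.9% positive and a median of -0.0030 over all genes. At an unadjusted p below 0.05 stood 3 of 86 genes, while 13.8% of all genes did (8.2% with a positive and 5.58% with a negative log2 fold change), and the smallest adjusted p was 0.289. All 7 core subunits of complex I had negative log2 fold changes, from -0.11 to -0.014, none at an unadjusted p below 0.05. Ndufs1, the largest of them and an iron-sulfur protein, averaged 206.8 ± 12.1 CPM in SCFA and 222 ± 18.1 CPM in H2O (SD, n = 6 and 5). Medium spiny neuron markers had negative fold changes in 10 of 10 genes in the same comparison (median -0.35, mean log2 CPM between 7.91 and 9.07 in SCFA and between 8.72 and 9.18 in H2O). Cortical markers were positive in 8 of 8 (median 2.69). With the cortical covariate the median of the 86 genes turned to 0.0046, with 46 positive, and 0 genes were at an unadjusted p below 0.05. The part of the medium spiny markers was not tested.

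The 3 genes at an unadjusted p below 0.05 in SCFA vs H2O were Ndufaf3, Cox4i2 and Ndufa10. Ndufaf3, an assembly factor of complex I, ran from 29.2 to 35.4 CPM in SCFA with a median of 32.1, against 38.9, 37.9, 36.3, 35.1 and 31.9 CPM in H2O. Its log2 fold change was -0.16 ± 0.065 (adjusted p = 0.289), and the lowest H2O library lay below the median of SCFA. With the cortical marker score as a covariate its value was -0.015. Ndufa10, an accessory subunit of complex I, averaged 114 ± 4.46 CPM in SCFA and 124 ± 9.20 CPM in H2O, with a log2 fold change of -0.12 ± 0.056 (adjusted p = 0.363). Without H2O replicate 2 the value of Ndufa10 was -0.074. Cox4i2 is described with the vascular isoforms below.

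Abx_SCFA vs H2O sets the combined treatment against water. Positive log2 fold changes were found in 60 of 86 genes and negative ones in 26, with a median of 0.027, against 47.6% positive and a median of -0.0071 over all genes. At an unadjusted p below 0.05 stood 3 of 86 genes, all positive, against 5.56% of all genes (2.09% with a positive and 3.46% with a negative log2 fold change), and the smallest adjusted p was 0.815. Complex IV was positive in 13 of 14 genes (median 0.080), complex II in 4 of 4 (0.040), complex III in 6 of 8 (0.047), complex I in 21 of 33 (0.024) and complex V in 10 of 15 (0.023). Without H2O replicate 5 the median over the 86 genes was -0.0011, and without H2O replicate 2 it was 0.068. The direction of the median thus turned on 1 library. Cortical markers were positive in 8 of 8 genes here as well (median 1.78). With the cortical covariate 66 of the 86 genes were positive (median 0.056) and 0 were at an unadjusted p below 0.05. With the mean of 5 pericyte and smooth muscle markers as a covariate, chosen after seeing the data, 76 were positive (median 0.088).

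Cox6a1, the widely expressed isoform of subunit 6a of complex IV, had the smallest p of the 86 genes in that comparison. It stood at 300.9, 289, 373, 351 and 393 CPM in Abx_SCFA, against 313, 313, 293, 277 and 303 CPM in H2O. Abx_SCFA replicates 3, 4 and 5 were above every H2O library, and replicates 1 and 2 within their range. The log2 fold change was 0.19 ± 0.073 (adjusted p = 0.815), and 0.13 without Abx_SCFA replicate 5. Atp5d followed with 120, 123, 140, 146 and 136 CPM in Abx_SCFA, against 126, 138, 116, 104 and 109 CPM in H2O, and a log2 fold change of 0.16 ± 0.074 (adjusted p = 0.815). Its value was 0.10 with the cortical marker score as a covariate. Ndufb8, a membrane-arm subunit of complex I whose protein is often used to gauge complex I content, averaged 146 ± 10.04 CPM in Abx_SCFA and 132 ± 8.07 CPM in H2O (SD, n = 5 each; 0.14 ± 0.065, adjusted p = 0.815).

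Abx_SCFA vs Abx asks what fatty acids did in rats on antibiotics. The 86 genes had 57 positive and 29 negative log2 fold changes with a median of 0.027, against 49.9% positive and a median of -0.00034 over all genes. Only Ndufa4l2 was at an unadjusted p below 0.05, where 3.19% of all genes were (1.85% with a positive and 1.34% with a negative log2 fold change), and the smallest adjusted p was 0.999. Without Abx replicate 4 the median was -0.017, a turn in direction with 1 library. With the pericyte and smooth muscle covariate 82 of the 86 genes were positive and 4 negative (median 0.089). Sdhc, a membrane anchor of complex II, averaged 126 ± 9.66 CPM in Abx_SCFA and 118 ± 1.32 CPM in Abx (SD, n = 5 and 4; log2 fold change 0.098 ± 0.055). On the negative side, Atp5f1 had -0.44 ± 0.24 at the level of about 1 CPM.

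Abx_SCFA vs SCFA asks what antibiotics did in rats that drank fatty acids, and all rats compared are of 1 number series. Here 64 of 86 genes were positive and 22 negative, with a median of 0.031, against 45.5% positive and a median of -0.012 over all genes. The median was positive with each of the 20 libraries left out in turn, from 0.0052 to 0.063. The Abx and H2O libraries among them are outside this comparison and could hardly change it. Without Abx_SCFA replicate 4 only 46 of the 86 genes were positive (median 0.0052), and without SCFA replicate 4 also 46 (median 0.010). At an unadjusted p below 0.05 stood 3 of 86 genes, against 6.78% of all genes (2.72% with a positive and 4.06% with a negative log2 fold change), and the smallest adjusted p was 0.732. Complex I was positive in 27 of 33 genes, with all 7 core subunits among them (median 0.070), and complex II in 4 of 4. Medium spiny neuron markers were positive in 10 of 10 genes in this comparison, 7 of them at an unadjusted p below 0.05 (median 0.39, scores between 8.84 and 9.09 in Abx_SCFA and between 7.91 and 9.07 in SCFA). Cortical markers were negative in 8 of 8 (median -0.91). With the cortical covariate 62 of the 86 genes were positive (median 0.029). With the pericyte and smooth muscle covariate 74 were (median 0.059). The part of the medium spiny markers was not tested. Without SCFA replicates 2 and 5, the libraries with the highest cortical scores, 57 of the 86 genes were positive (median 0.030).

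Sdhd, the small membrane anchor of complex II, had the smallest p of the 86 genes in Abx_SCFA vs SCFA. It stood at 114, 109, 112, 129 and 114 CPM in Abx_SCFA and from 90.7 to 114 CPM in SCFA with a median of 103. The log2 fold change was 0.17 ± 0.068 (adjusted p = 0.732), and 0.12 without Abx_SCFA replicate 4, the highest library. Cox6a1 had 0.15 ± 0.069, and 0.093 without Abx_SCFA replicate 5, and Ndufa4l2 0.27 ± 0.13 (adjusted p = 0.732 for both).

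The interaction asks whether antibiotics acted differently with and without fatty acids, as Abx_SCFA minus SCFA less Abx minus H2O. It was positive in 58 of 86 genes, with a median of 0.037, against 51.8% positive and a median of 0.0069 over all genes. With the cortical covariate 44 were positive and 42 negative (median 0.0047). Without Abx replicate 4 the split was 43 positive and 43 negative (median 0.00014), and without H2O replicate 2 it was 40 positive and 46 negative (median -0.012). Only Ndufa4l2 was at an unadjusted p below 0.05, against 7.85% of all genes (2.83% with a positive and 5.01% with a negative log2 fold change), and the smallest adjusted p was 0.626. Core subunits of complex I were positive in 7 of 7, from 0.04 to 0.09. The intervals were wider here, with 26 of 86 genes within 1.2-fold and 80 within 1.5-fold.

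**Figure D2:**
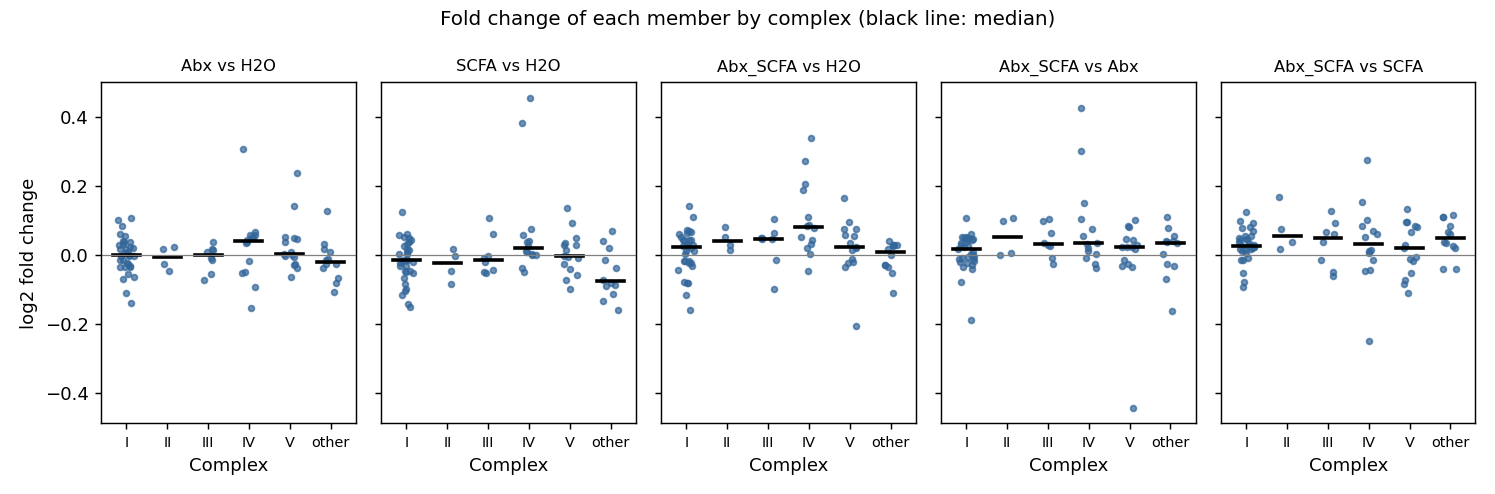
Log2 fold change of each of the 86 genes (vertical axis) by complex (horizontal axis; other: assembly factors, associated factors and copies) in 5 comparisons, with 1 point per gene and a black line at the median. The medians lie near 0 in all panels, and the points farthest from 0 are the low-count genes Cox4i2, Cox6b2, Ndufa4l2 and Atp5f1.

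Individual subunits showed the same closeness of groups. In complex I, Ndufv1, the core subunit that binds NADH, averaged 237 ± 10.1 CPM in Abx, 228 ± 10.3 CPM in SCFA, 241 ± 13.5 CPM in Abx_SCFA and 231 ± 14.6 CPM in H2O. Ndufab1, the mitochondrial acyl carrier protein, averaged between 70.1 and 71.0 CPM in the 4 groups. Ndufa9 had the smallest spread within groups of all 86 genes, with an SD of 0.063 on the log2 scale and a range from 92.3 to 108 CPM over 20 libraries.

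Complex II had the tightest transcripts of the 5 complexes. The median SD within groups was 0.083 on the log2 scale for its 4 subunits, against 0.12 for complex I, 0.14 for complex III, 0.14 for complex IV and 0.13 for complex V. Sdha, the flavoprotein that oxidises succinate, stood at 395, 382, 385 and 358 CPM in Abx, from 349 to 394 CPM in SCFA with a median of 355, at 363, 359, 386, 414.4 and 382 CPM in Abx_SCFA, and at 371, 398, 362, 378 and 360 CPM in H2O. Sdhb, the iron-sulfur subunit, averaged 106 ± 3.86 CPM in Abx, 104 ± 6.48 CPM in SCFA, 106 ± 8.37 CPM in Abx_SCFA and 105 ± 6.84 CPM in H2O. Its log2 fold change stood between -0.0030 and 0.018 in all 6 comparisons.

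In complex III, the core proteins Uqcrc1 and Uqcrc2 and the Rieske iron-sulfur protein Uqcrfs1 had log2 fold changes between -0.055 and 0.11 in all 6 comparisons. Uqcrfs1 averaged 125 ± 4.94 CPM in Abx, 129 ± 7.41 CPM in SCFA, 134 ± 8.06 CPM in Abx_SCFA and 130 ± 11.4 CPM in H2O. Uqcrb, a small accessory subunit, varied more between libraries, from 43.0 to 70.4 CPM. In complex V, Atp5b, the catalytic beta subunit, averaged 1435 ± 65.1 CPM in Abx, 1374 ± 49.4 CPM in SCFA, 1457 ± 67.1 CPM in Abx_SCFA and 1400 ± 120.2 CPM in H2O. Atp5a1, the alpha subunit, averaged 729 ± 38.2 CPM in Abx, 696 ± 38.6 CPM in SCFA, 744 ± 60.5 CPM in Abx_SCFA and 732 ± 62.2 CPM in H2O. Atp5g1, Atp5g2 and Atp5g3 encode the same mature c subunit of the rotor ring, and their log2 fold changes lay between -0.06 and 0.13 over all 6 comparisons.

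Several subunits of complex IV exist as a common and a tissue-restricted isoform. The common ones were well covered, such as Cox4i1 at 535 ± 63.1 CPM in Abx, 544 ± 32.9 CPM in SCFA, 548 ± 50.8 CPM in Abx_SCFA and 517 ± 29.2 CPM in H2O. The heart and muscle isoforms Cox6a2 and Cox8b and the testis isoform Cox8c did not reach the count minimum. Cox6a2 had at most 11 counts in a library, Cox8b at most 9 and Cox8c 3 counts over all libraries. Ndufa1 and the complex II assembly factor Sdhaf1 also missed it, with 5 counts in all for Ndufa1 and at most 10 counts in a library for Sdhaf1, and the pseudogene Cox6c-ps1 had 0. Just above the minimum were Atp5f1, at 0.93 CPM on average, and Cox6b2, an isoform known from testis, at 1.56 CPM. Atp5f1 and Ndufa1 encode constant parts of complexes V and I, and reads of near-identical copies cannot be assigned with certainty in these counts, so that the levels of such rows are uncertain.

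Within each group the 86 genes moved up and down together from library to library. In H2O replicate 2, 83 of 86 genes were above their own mean in H2O, and in H2O replicate 1, 77 were. In H2O replicate 5 only 8 were. In Abx_SCFA the count was 81 in replicate 4 and 2 in replicate 1, in SCFA 76 in replicate 6 and 8 in replicate 4, and in Abx 66 in replicate 3 and 11 in replicate 4. Over all genes tested, the share above the group mean was between 46.2% and 54.3% in every library. The scaling of each library to the bulk of its genes holds that share near the middle. It is thus no yardstick for a set of genes, and other sets are given below. In complex I, 33 of 33 subunits were above the group mean in H2O replicate 2 and in Abx_SCFA replicate 4, and 0 of 33 were in Abx_SCFA replicate 1.

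The median deviation of the 86 genes from their group means ran from -0.15 in H2O replicate 5 to 0.15 in H2O replicate 2 on the log2 scale. Libraries of 1 group thus differed by more than any median between groups given above. The median SD within groups was nevertheless 0.13 for the 86 genes, against 0.16 over all genes and 0.13 over the 9299 genes at 10 CPM or more. The typical gene of the 86 was on the same side of its group mean as the majority of them in 16 of 20 libraries (median), and 59 genes were so in 15 or more. Atp5g3, Cox7a2 and Uqcr10 were in 19 of 20. At the other end were Ndufa4l2, in 8 of 20, and Cox4i2 and Atp5f1, in 9 of 20.

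**Figure D3:**
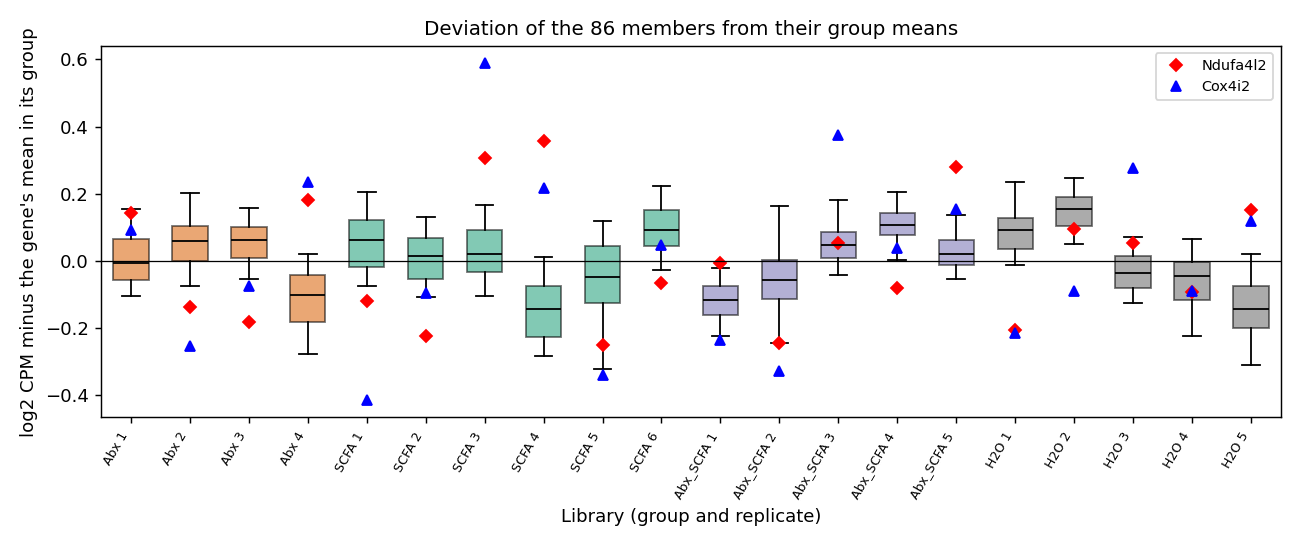
Deviation of log2 CPM from the mean of the gene in its own group (vertical axis) for the 86 genes in each library (horizontal axis), where boxes span the quartiles, the line is the median and whiskers reach the 5th and 95th percentiles. Diamonds mark Ndufa4l2 and triangles Cox4i2, which leave the boxes in many libraries, while the box of H2O replicate 2 lies above 0 and that of H2O replicate 5 below 0.

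Genes outside the respiratory chain were looked up after the values were seen, and followed in some libraries and not in others. In H2O replicate 2, 61 of 68 mitochondrial ribosomal protein genes, 35 of 40 proteasome genes and 76 of 89 cytosolic ribosomal protein genes were above their H2O means. In H2O replicate 5 the counts were 8 of 68, 1 of 40 and 31 of 89. In Abx_SCFA replicate 4 they were 61 of 68, 37 of 40 and 35 of 89, so that the cytosolic ribosomal genes did not follow there. In Abx replicate 3, with 66 of the 86 genes above their means, 14 of 40 proteasome genes were. In H2O replicate 4, with 18 of the 86, the counts were 37 of 68 mitochondrial ribosomal and 26 of 40 proteasome genes. In SCFA replicate 1, with 59 of the 86, 15 of 40 proteasome genes were. What moves these libraries was not tested.

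Nuclear respiratory genes are known in mammals for promoters with sites of the factors NRF1, GABP of the ETS family (also called NRF2), YY1 and SP1. Since the 86 genes moved together between libraries, the 250 bases before their annotated starts were read from RefSeq (build GRCr8, not the build of the counts), where 75 of 86 genes were matched, 15 of them by a synonym. The NRF1 core, GCGCA and GCGC with any base between them, was present on either strand in 14 of 75 promoters (18.7%), against 5.44% of 18999 promoters of protein-coding genes. The ETS core CCGGAAG was present in 22 (29.3%), against 9.52%. The GC box GGGCGG, the letters bound by SP1, was present in 27 (36.0%), against 40.3%, and the YY1 core AAGATGGCG in 1 (1.33%), against 0.78%. The ETS core ends in the letters with which the YY1 core begins, no motif contains another, and 26 of 75 promoters held none of the 4. By complex, the NRF1 core was in 6 of 30 promoters of complex I, 1 of 4 of II, 1 of 6 of III, 0 of 11 of IV and 3 of 14 of V. The 18999 promoters were not limited to genes tested here, and no share over the tested genes alone was taken. A match is a run of letters only, and no match says nothing about a factor.

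The promoters of 3 genes are shown, for 2 that followed the common movement and hold an ETS or an NRF1 core, and 1 that did not follow it. The YY1 core is in none of the 3. Atp5g3 and Uqcr10, which followed the common movement in 19 of 20 libraries, hold none of the 4 motifs. Whether the motifs go with that movement was not tested. Cox7a2, a common subunit of complex IV (chr8:89601150-89601399, minus strand), has an ETS core read on the other strand from -43 to -37 before the start and a GC box from -209 to -204. Atp5g2, named Atp5mc2 in RefSeq (chr7:135678219-135678468, minus strand), has an NRF1 core from -56 to -47. Ndufa4l2 (chr7:65241919-65242168, plus strand) has a GC box from -60 to -55 and no ETS, NRF1 or YY1 core. Capitals mark these motifs, and each sequence runs 5′ to 3′ up to the base before the start.
Cox7a2: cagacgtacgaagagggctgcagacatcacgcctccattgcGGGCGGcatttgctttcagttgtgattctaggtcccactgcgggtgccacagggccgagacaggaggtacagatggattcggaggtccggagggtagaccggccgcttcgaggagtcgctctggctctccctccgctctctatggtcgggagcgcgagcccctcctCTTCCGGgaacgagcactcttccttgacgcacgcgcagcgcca
Atp5g2: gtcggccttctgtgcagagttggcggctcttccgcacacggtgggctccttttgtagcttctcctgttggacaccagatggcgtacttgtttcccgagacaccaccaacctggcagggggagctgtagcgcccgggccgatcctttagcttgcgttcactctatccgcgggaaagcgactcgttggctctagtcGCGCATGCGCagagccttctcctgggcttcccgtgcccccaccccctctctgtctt
Ndufa4l2: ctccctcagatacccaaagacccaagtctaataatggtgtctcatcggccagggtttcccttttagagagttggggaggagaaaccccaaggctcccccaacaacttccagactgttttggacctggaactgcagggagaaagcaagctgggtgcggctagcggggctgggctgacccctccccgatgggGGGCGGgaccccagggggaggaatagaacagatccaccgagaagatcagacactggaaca
Cox7a2 was with the majority of the 86 genes in 19 of 20 libraries, Atp5g2 in 18 and Ndufa4l2 in 8.

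Ndufa4l2 and Cox4i2 are the isoforms of complex IV that stood apart. Both are known as genes induced by low oxygen, and in mouse brain both are enriched in pericytes, the mural cells of capillaries. Ndufa4l2 replaces Ndufa4 and Cox4i2 replaces Cox4i1. Ndufa4l2 stood at 6.52, 5.35, 5.18 and 6.70 CPM in Abx, from 5.46 to 8.37 CPM in SCFA with a median of 6.10, at 7.89, 6.66, 8.22, 7.49 and 9.64 CPM in Abx_SCFA, and at 5.70, 7.05, 6.83, 6.17 and 7.33 CPM in H2O. The lowest Abx_SCFA library, at 6.66 CPM, was just under the highest of Abx, and SCFA reached 8.37 CPM, above 4 of the 5 Abx_SCFA libraries.

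Abx_SCFA vs Abx gave Ndufa4l2 a log2 fold change of 0.43 ± 0.14 (unadjusted p = 0.0079, adjusted p = 0.999, edgeR), which did not pass. The value lay between 0.34, without Abx_SCFA replicate 5, and 0.48, without Abx replicate 4, when each library was left out. The interaction for Ndufa4l2 was 0.43 ± 0.19 (adjusted p = 0.626). Its partner isoform Ndufa4 had -0.04 in Abx_SCFA vs Abx. In the same comparison the markers of endothelial cells were positive in 4 of 4 genes, all at an unadjusted p below 0.05 (median 0.30), with mean log2 CPM from 6.04 to 6.32 in Abx_SCFA and 5.65 to 5.99 in Abx. Pericyte and smooth muscle markers were positive in 5 of 5, with 2 at an unadjusted p below 0.05 (median 0.22), and ran from 4.79 to 5.20 in Abx_SCFA and from 4.51 to 5.07 in Abx. None of these markers was at 0 in any library. With the pericyte and smooth muscle score as a covariate, chosen after seeing the data, Ndufa4l2 had 0.25. Whether the amount of vessel in the sample had a part was otherwise not tested.

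Cox4i2 stood at 2.25, 1.75, 1.99 and 2.50 CPM in Abx, from 2.25 to 4.61 CPM in SCFA with a median of 2.98, at 2.17, 2.03, 3.36, 2.64 and 2.87 CPM in Abx_SCFA, and at 1.93, 2.11, 2.76, 2.12 and 2.46 CPM in H2O. SCFA replicates 3, 4 and 6 were the highest of SCFA, and the group overlapped with H2O. The log2 fold change in SCFA vs H2O was 0.45 ± 0.19 (unadjusted p = 0.025, adjusted p = 0.293), with a 95% interval from 0.062 to 0.85. It was 0.31 without SCFA replicate 3 and 0.30 with the pericyte and smooth muscle score as a covariate. Pericyte and smooth muscle markers were positive in 4 of 5 genes in that comparison (median 0.062) and lay between 4.67 and 5.10 in SCFA and between 4.42 and 4.95 in H2O. Cox4i1, the common isoform, had 0.07.

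**Figure D4:**
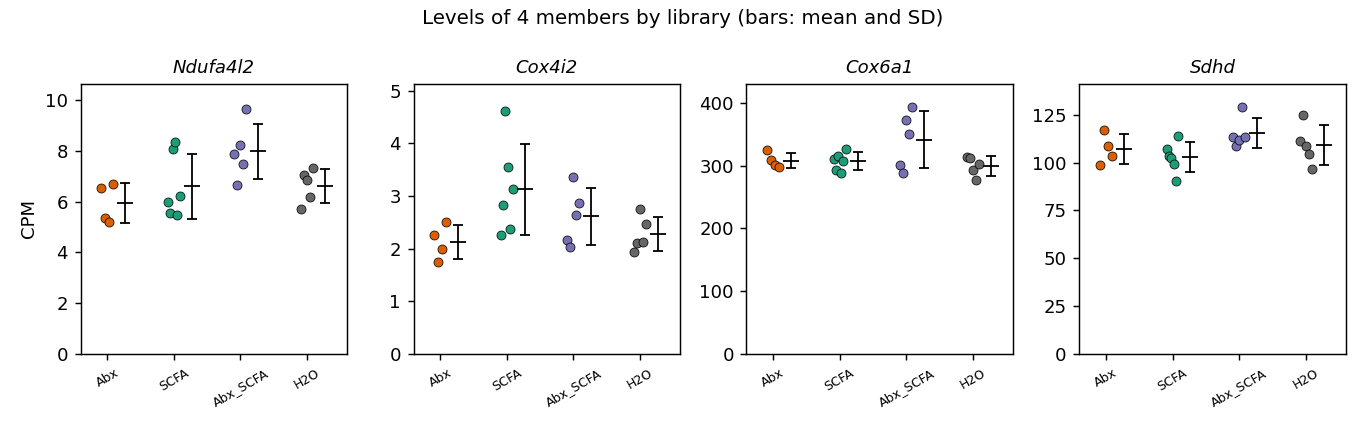
CPM (vertical axis, from 0) of Ndufa4l2, Cox4i2, Cox6a1 and Sdhd by treatment group (horizontal axis), with 1 point per library and bars for the mean and SD. Ndufa4l2 ran from 6.66 to 9.64 CPM in Abx_SCFA and from 5.18 to 6.70 CPM in Abx, and the groups overlap for all 4 genes.

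Abx and H2O rats came from 2 number series, which allows Abx vs H2O to be read inside each. In the 2-hundred series, with 2 Abx and 2 H2O rats, 13 of the 86 genes were higher and 73 lower in Abx, with a median difference of -0.082 in log2 CPM. In the 3-hundred series, with 2 Abx and 3 H2O rats, 64 were higher and 22 lower, with a median of 0.045. Over all genes the medians were -0.014 and -0.00084. Complex V was lower in Abx for 14 of 15 subunits in the 2-hundred series (median -0.12) and higher for 15 of 15 in the 3-hundred series (median 0.084). The mean log2 CPM of the 86 genes was 6.24 in Abx and 6.33 in H2O in the 2-hundred series, and 6.19 in Abx and 6.13 in H2O in the 3-hundred series. The median near 0 of the pooled comparison joins values of opposite sign, each from 2 or 3 rats a group, and their difference was not tested. H2O replicates 1 and 2, which had the most genes above the H2O mean, are the H2O rats of the 2-hundred series. With the series as a block in the fit the median was -0.0087, and 0 of 86 genes were called and 0 were at an unadjusted p below 0.05.

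**Figure D5:**
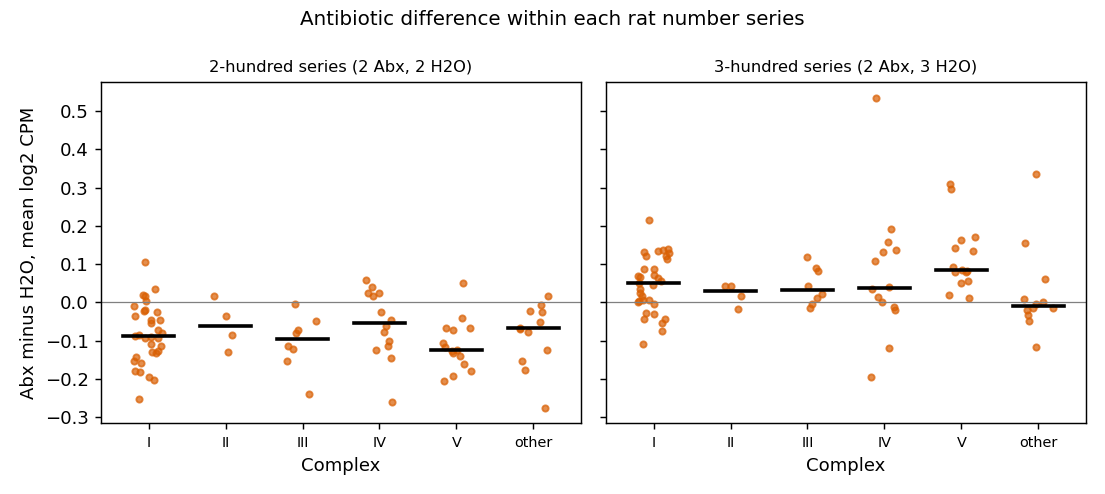
Difference in mean log2 CPM between Abx and H2O (vertical axis, Abx minus H2O) for each of the 86 genes by complex (horizontal axis), in the 2-hundred series on the left and the 3-hundred series on the right, with a black line at the median. Complex V has a median of -0.12 in the 2-hundred series and 0.084 in the 3-hundred series.

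Genes that serve the respiratory chain but carry other names gave no call either, with 0 genes called in every list and comparison (edgeR). Cytochrome c (Cycs) and the cytochrome c1 subunit of complex III (Cyc1) had positive log2 fold changes against H2O in all 3 treated groups. Cyc1 stood at 160, 148, 175, 168 and 165 CPM in Abx_SCFA, against 154, 162, 142, 142 and 147 CPM in H2O (log2 fold change 0.13 ± 0.055, unadjusted p = 0.032, adjusted p = 0.815). Of 28 further assembly factors, 10 were positive in Abx vs H2O, 5 in SCFA vs H2O (median -0.046), 11 in Abx_SCFA vs H2O, 16 in Abx_SCFA vs Abx and 20 in Abx_SCFA vs SCFA. At an unadjusted p below 0.05 were Tmem126a, a factor of complex I, in Abx vs H2O (-0.17 ± 0.081), Tmem70, a factor of ATP synthase, in SCFA vs H2O (-0.15 ± 0.072) and Atpaf2, another such factor, in Abx_SCFA vs SCFA (0.11 ± 0.055).

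Among 12 regulators, Ppargc1a, the coactivator that drives mitochondrial biogenesis, averaged 18.8 ± 1.10 CPM in Abx, 18.7 ± 2.68 CPM in SCFA, 17.7 ± 0.56 CPM in Abx_SCFA and 17.04 ± 1.32 CPM in H2O. Gabpa, the DNA-binding subunit of GABP, averaged 40.5 ± 1.94 CPM in Abx and 45.0 ± 2.75 CPM in H2O (log2 fold change -0.15 ± 0.054, unadjusted p = 0.0098, adjusted p = 0.563). Nrf1 averaged 12.9 ± 0.86 CPM in Abx and 13.6 ± 0.46 CPM in H2O. Enzymes of the tricarboxylic acid cycle were positive in 14 of 17 genes in Abx vs H2O (median 0.020) and 6 of 17 in SCFA vs H2O (median -0.023), with none at an unadjusted p below 0.05. Glycolytic genes were positive in 13 of 16 genes in Abx vs H2O (median 0.084), 11 in SCFA vs H2O (0.081) and 15 in Abx_SCFA vs H2O (0.098), with Pfkp, a phosphofructokinase gene, in SCFA vs H2O (0.22 ± 0.10) the only one at an unadjusted p below 0.05. These 3 comparisons share the H2O libraries.

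Coenzyme Q genes were positive in 7 of 10 genes in Abx vs H2O (median 0.056), 3 of 10 in SCFA vs H2O (median -0.022), 9 of 10 in Abx_SCFA vs H2O (median 0.052) and 7 of 10 in Abx_SCFA vs SCFA (median 0.071). In SCFA vs H2O Coq8a had -0.18 ± 0.065 (unadjusted p = 0.011, adjusted p = 0.252). Coq4 had 0.27 ± 0.093 in Abx_SCFA vs SCFA (unadjusted p = 0.0085, adjusted p = 0.732) and Coq2, which attaches the isoprenoid tail, 0.18 ± 0.068. Of 6 carrier and channel genes of the mitochondrial membranes, 5 were positive in Abx_SCFA vs SCFA, with Slc25a5, an ADP/ATP carrier, at 0.16 ± 0.073 (adjusted p = 0.732). Atpif1, the inhibitor of ATP synthase, stood at 125, 124, 129 and 105 CPM in Abx, from 102 to 137 CPM in SCFA, at 100.3, 123, 124, 129 and 118 CPM in Abx_SCFA, and at 125, 136, 119, 111 and 99.4 CPM in H2O, without a gap between groups.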

How the data were processed

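RNA was extracted with an RNeasy kit and cDNA made with a SMARTer kit from polyA RNA, per the labels' protocols. The submitters' processing notes list Rnor_6.0 as the build, and limma, STAR 2.4.0 and FastQC 0.11.6 as tools. How reads were counted, on which annotation and strand, is not stated there or in the labels. The authors deposited raw counts per gene symbol for 20 libraries. No pair of libraries agreed within sampling noise (lowest chi-square per gene 6.77 over 190 pairs), and each counts as 1 replicate. Each library has its own rat number in its title, and which rats shared a cage is not stated. The p-values measure the spread between these rats.

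Genes were tested with edgeR 4.0.16 (R 4.3.3) by its quasi-likelihood method (robust, TMM, filterByExpr with 10 counts in a median library and 15 in total), with 1 model of 4 groups, 16 residual degrees of freedom and Benjamini-Hochberg adjustment over 12846 genes. Log2 CPM used a prior count of 2, and standard errors come from the F statistic. DESeq2 1.42.0 and limma-voom (limma 3.58.1) were alternatives, and the fit was tested on simulated data. Interval ends come from the edgeR standard errors, so they cover counting error and the spread between libraries, and no other source of error. No molecular identifiers were used. The genes, the lists of pathway and marker genes and the tests were chosen with earlier results of these data known. Named genes are the 5 positive and 5 negative with the smallest p per comparison, of which the text gives the main ones, isoforms, complex II and core subunits, and the most variable. The part of the rule on levels per coding length was not applied, for want of lengths. A gene that the rule names is counted in the summaries but is not reported here.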

Additional observations from a re-analysis of the deposited data

Results flagged for a closer look

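Named genes, the mean over the 86 genes and the mean of each complex were examined in each group of 4 to 6 libraries. Of these 232 combinations, 8 (3.45%) held a library that stood apart, where chance gives about 5%. The measure was the gap of that library to its nearest neighbour relative to the range of the group. Abx_SCFA replicate 4 was the highest library for Ndufa10 at 138 CPM (the next at 120 CPM), Ndufs1 at 231 CPM (next 207.4), Sdhaf2 at 66.8 CPM (next 57.9) and Sdhd at 129 CPM (next 114). In the same library 81 of the 86 respiratory genes were above their group means. Cox5b was lowest in Abx_SCFA replicate 1 at 136 CPM (next 150.3), a library with 2 of 86 genes above their means. Sdhc was lowest in SCFA replicate 4 at 113 CPM (next 123), Ndufs6 in Abx replicate 4 at 6.97 CPM (next 10.1) and Atp5f1 in H2O replicate 5 at 0.567 CPM (next 0.991), and these libraries were the lowest of their groups for the 86 genes together. No interaction of a named gene reached an adjusted p below 0.05 (0 of those tested, edgeR).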

How the results depend on the processing

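The count of called genes among the 86 was 0 in every comparison to which an alternative was applied. These were DESeq2 size factors, other filters, DESeq2, limma-voom, only the groups compared, marker covariates, the number series as a block, and libraries left out. The block was fitted for Abx vs H2O only, and the fit to only the groups compared does not exist for the interaction. Of 1800 values of named genes under the alternatives, 1795 kept their direction and 5 reversed. With the cortical marker covariate these were Sdhaf2, Abx vs H2O (0.0064), Ndufa6, Abx_SCFA vs H2O (0.093) and Ndufaf3, interaction (-0.012). With the pericyte and smooth muscle covariate, chosen after seeing the data, they were Ndufs6, Abx_SCFA vs Abx (0.076) and Atp5s, Abx_SCFA vs Abx (0.017). Named genes were picked by their small p in the same data, and many alternatives leave out a library outside the comparison. Few reversals could thus arise, and their count says little about how stable the directions are. The counts at an unadjusted p below 0.05 were small and moved. With the cortical covariate they were 1 in Abx vs H2O and 0 in the interaction, Abx_SCFA vs H2O and SCFA vs H2O. With the pericyte and smooth muscle covariate they were 0 in SCFA vs H2O and 2 in Abx_SCFA vs Abx. With that covariate they were 6 in Abx_SCFA vs SCFA and 3 in the interaction. In Abx_SCFA vs SCFA the count was 1 with only the groups compared, 1 without SCFA replicates 2 and 5 and 1 without both H2O replicate 4 and Abx_SCFA replicate 5. The interaction had 0 under both of these removals, and Abx_SCFA vs H2O had 0 under the last. H2O replicate 4 and Abx_SCFA replicate 5 held Cend1 at 0.315 and 0.306 CPM, within the range of SCFA (0.19 to 0.55). Other libraries outside SCFA held it at 4.85 CPM or more. Without these 2 libraries 50 of the 86 genes were positive in Abx_SCFA vs H2O (median 0.0051), 29 in SCFA vs H2O (-0.019) and 59 in Abx_SCFA vs SCFA (0.032). The causes were not tested. Leaving out 1 library at a time gave from 0 to 1 in Abx vs H2O, 0 to 7 in SCFA vs H2O (7 without H2O replicate 5), 0 to 5 in Abx_SCFA vs H2O (5 without H2O replicate 5), 1 to 3 in Abx_SCFA vs Abx, 1 to 5 in Abx_SCFA vs SCFA and 0 to 2 in the interaction. The median of the 86 genes then ran from -0.028 to 0.052, -0.031 to 0.029, -0.0011 to 0.068, -0.017 to 0.053, 0.0052 to 0.063 and -0.012 to 0.064 in the same order, so that its sign was the same throughout in Abx_SCFA vs SCFA only. No paired analysis was possible because the labels give no replicate numbers that groups share. Depth limits the low-count genes, and the 3 widest intervals in each comparison were those of Cox6b2, Atp5f1 and Cox4i2.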
